A study of Mus musculus with 36 samples.

Results

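The miR-181 family was measured by small RNA sequencing in mouse pre-B cells before and after an increase of nuclear Ikaros. All rows named mmu-miR-181 followed by a, b, c or d, with any copy number and arm, were taken as members, which gave 8 of the 469 mature miRNAs of the table. The 4 arms named 5p are mmu-miR-181a-5p, mmu-miR-181b-5p, mmu-miR-181c-5p and mmu-miR-181d-5p, and the 4 arms named 3p are mmu-miR-181a-1-3p, mmu-miR-181b-2-3p, mmu-miR-181c-3p and mmu-miR-181d-3p. The 36 samples came from B3, a mouse pre-B cell line. The Ikaros line (18 samples) was transduced with an MSCV retroviral vector encoding HA-tagged Ikaros fused to ERt2 (an estrogen receptor domain that binds the drug), with IRES-GFP, and the control line (18 samples) with the same vector carrying ERt2 and IRES-GFP alone. Both lines were sorted for GFP, with no selection of a clone described, and both received 4-hydroxy-tamoxifen (4-OHT, 0.5 uM), which carries the fusion protein into the nucleus. There were 3 samples of each line at each of 6 times, which were 0, 2, 6, 12, 18 and 24 h, and 0 h is untreated in the methods of the study although the labels give it the same dose.

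A miRNA hairpin is cut into a duplex with a 5p and a 3p arm, and usually one arm is loaded into Argonaute as the guide while the other is degraded. The guide finds messenger RNAs mainly through its seed, the bases after the first at its 5′ end, so miRNAs that share a seed share many predicted targets. The family is best known in lymphocytes: miR-181a is abundant in thymocytes, where it raises the sensitivity of T cell receptor signalling, and its forced expression in blood progenitors raised the output of B-lineage cells.

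The mature sequences show which members can be expected to bind alike and which rows can be traced to one hairpin. All 8 members had a mature sequence in RefSeq (GRCm38.p6), printed 5′ to 3′ with the seed, bases 2 to 8, in capitals.
mmu-miR-181a-5p: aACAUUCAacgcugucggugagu
mmu-miR-181b-5p: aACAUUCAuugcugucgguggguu
mmu-miR-181c-5p: aACAUUCAaccugucggugagu
mmu-miR-181d-5p: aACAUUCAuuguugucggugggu
mmu-miR-181a-1-3p: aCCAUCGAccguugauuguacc
mmu-miR-181c-3p: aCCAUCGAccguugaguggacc
mmu-miR-181b-2-3p: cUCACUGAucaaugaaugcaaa
mmu-miR-181d-3p: cCCACCGGgggaugaauguca

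The 4 5p arms had one seed, which none of the other miRNAs shared among the 391 of 469 in the table with a RefSeq sequence. The 3p arms held 3 seeds, one of them common to miR-181a-1-3p and miR-181c-3p. Counted from 1 at the 5′ end, miR-181b-5p differed from miR-181a-5p by A9U, C10U and A21G and was 1 base longer. MiR-181d-5p differed from miR-181b-5p by C12U and was 1 base shorter, and miR-181c-5p was 1 edit away from miR-181a-5p and 1 base shorter. Relative to miR-181a-1-3p, miR-181c-3p carried U16G and U19G.

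In the GENCODE vM21 annotation of GRCm38 the family had 6 hairpins in 3 clusters of 2. On chromosome 1, Mir181a-1 (chr1:137966455-137966541, + strand) lay 97 bases before Mir181b-1 (chr1:137966639-137966718, + strand), both in an exon of the non-coding RNA A430106G13Rik of the same strand. On chromosome 2, Mir181a-2 (chr2:38852735-38852810, + strand) and Mir181b-2 (chr2:38853830-38853918, + strand) were 1019 bases apart in an intron of Nr6a1, which is read from the opposite strand. Mir181b-2 also overlapped an exon of Gm44144, on the opposite strand too. Mir181c (chr8:84178873-84178961, - strand) and Mir181d (chr8:84178716-84178787, - strand) were 85 bases apart in an intron of Nanos3, on the same strand as that gene. MiR-181a-5p and miR-181b-5p are each made from a hairpin on chromosome 1 and another on chromosome 2 with the same mature sequence, so their rows sum both sources. MiR-181a-1-3p is by its name the 3p arm of the chromosome 1 hairpin and miR-181b-2-3p that of the chromosome 2 hairpin. These 2 hairpins carry the arms with the largest line differences below and are printed with both arms in capitals.
Mir181a-1: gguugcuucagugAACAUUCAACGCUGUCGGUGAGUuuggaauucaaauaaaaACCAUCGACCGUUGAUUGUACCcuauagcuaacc
Mir181b-2: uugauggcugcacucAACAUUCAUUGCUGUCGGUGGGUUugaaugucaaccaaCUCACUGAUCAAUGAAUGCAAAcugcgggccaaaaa

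The 3p arms of the other copies, miR-181a-2-3p and miR-181b-1-3p, are not rows of the table and were not analysed here. They differ from their table counterparts by few bases. The first differs from miR-181a-1-3p by U5C and U16C, and the second differs from miR-181b-2-3p by U9A and is 1 base shorter. How the aligner shared reads between such copies is not given in the sources used here, and the values of both 3p arms are uncertain to that extent.

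Levels are the authors' normalised values on the log2 scale (a base read from the range of the values), and differences are those of the Ikaros line minus the control line in log2 units, so that 1 is a doubling. The methods of the study give an approximate range of reads for the libraries, but the table holds no counts, so the number of reads behind a value is not known here. The members are 21 to 24 bases long, so no correction for length was made when their levels were set beside each other. MiR-181a-5p had the second highest mean level of the 469 miRNAs, 18.15 ± 0.27 (SD over 36 samples), behind miR-191-5p at 18.45. MiR-181b-5p (14.87 ± 0.25) was at rank 7 and miR-181a-1-3p (14.28 ± 0.35) at rank 10. MiR-181d-5p (12.02 ± 0.18, rank 29), miR-181c-5p (11.81 ± 0.26, rank 32) and miR-181c-3p (10.90 ± 0.16, rank 51) followed. MiR-181b-2-3p (2.81 ± 0.55, rank 291) and miR-181d-3p (2.22 ± 0.52, rank 325) had means below the lowest sample median of all miRNAs (3.70). In this order the sample ranges of miR-181b-5p and miR-181a-1-3p overlapped, as did those of miR-181d-5p and miR-181c-5p, and those of the last pair. The 3p arm of Mir181a-1 was thus among the 10 most abundant miRNAs, whereas that of Mir181b-2 was at rank 291 of 469.

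**Figure D1:**
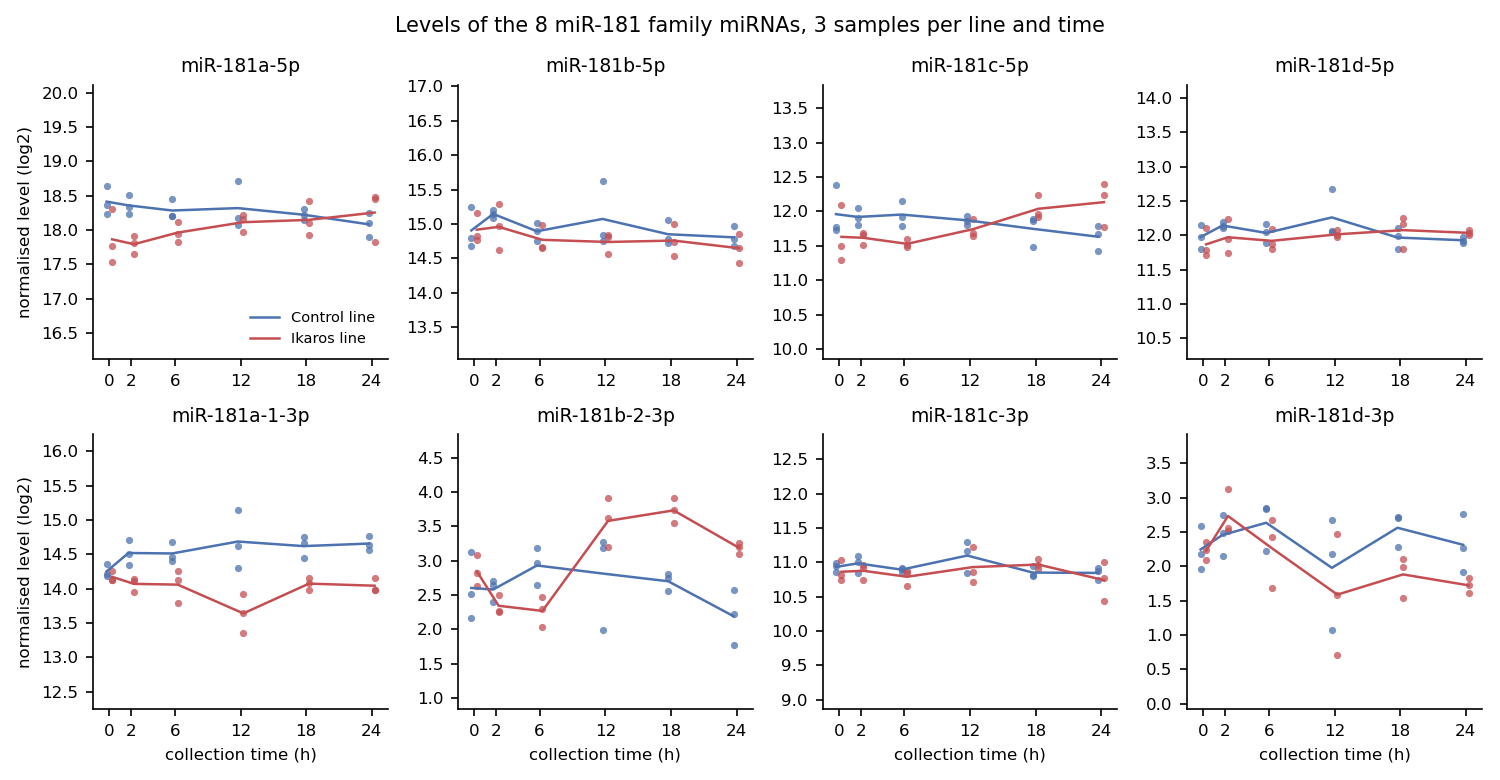
Normalised level (log2, vertical axis) of the 8 miR-181 family miRNAs against collection time in hours, with each of the 3 samples per line and time as a point (control line in blue and drawn slightly left, Ikaros line in red and slightly right) and lines through the group means. Every panel spans 4 log2 units; the Ikaros points of miR-181a-1-3p lie below all control points from 2 h on, and those of miR-181b-2-3p lie above them at 18 h and 24 h.

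On the linear scale (2 to the power of the value, over the sum of a sample) the family made up between 14.9% and 36.2% of a sample's total, with a median of 26.7%. These are shares of normalised values and not of reads. MiR-181a-5p alone was between 77.1% and 88.0% of the family's sum. The mean share at 0 h was 30.8% ± 5.08 in the control line and 21.1% ± 5.70 in the Ikaros line (SD, n = 3). At 2 h it was 29.0% ± 1.60 and 20.4% ± 4.77, and at 6 h 29.1% ± 2.63 and 20.6% ± 3.83. By 18 h the shares were 27.3% ± 1.28 and 26.0% ± 1.32, and at 24 h 25.6% ± 2.57 and 25.4% ± 6.60. The lines did not overlap at 2 h, where the highest Ikaros sample reached 23.7% and the lowest control sample was at 27.6%, nor at 6 h (23.2% and 26.2%). At 24 h the Ikaros samples spanned 18.09% to 31.0% and enclosed the control samples. These shares were described without a test.

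**Figure D2:**
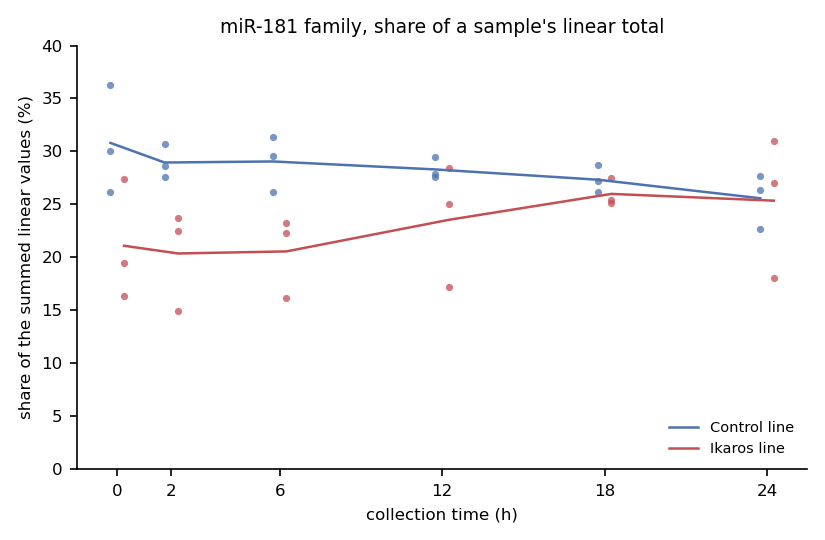
Share of a sample's summed linear values held by the 8 miR-181 family miRNAs (percent, vertical axis) against collection time in hours, with 3 samples per line and time as points and lines through the group means. The group means lie at 30.8% (control, blue) and 21.1% (Ikaros, red) at 0 h and at 25.6% and 25.4% at 24 h.

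Several facts of the samples bear on the comparisons. The 0 h samples came from culture batches 4, 5 and 6 and those of 2 h to 24 h from batches 1, 2 and 3, so a change from 0 h within a line cannot be told apart from the culture batch, whereas both lines shared the batches at each time. The limma tests treated the samples as independent, although the same batches recur from 2 h to 24 h. P-values of means over the 6 times may be too small for that reason. In the sequencing plan of the study, one batch held most of the Ikaros line and of the control line at 0 h and 24 h, and the other held the control line between 2 h and 18 h. Some samples of both lines were sequenced in both batches, and the authors used these to estimate and correct the batch effect before averaging them. The table holds only the corrected averages, so whether any batch difference remained between the lines at 2 h to 18 h was not tested. All 6 miRNAs fixed as B-lineage and lymphoid markers were in the table, among them the members miR-181a-5p and miR-181b-5p. The remaining ones had mean levels of 14.62 (miR-142-5p), 13.21 (miR-142-3p), 10.77 (miR-155-5p) and 3.90 (miR-150-5p, rank 236). The 10 markers of other cell types in the table made up 0.529% to 0.883% of the linear total. Of that sum 95.5% to 99.0% was miR-9-5p, listed as neural, whose lines overlapped at every time. The other 9 markers together made up 0.00818% to 0.0291%, with 0.0153% to 0.0242% in the control line and 0.0225% to 0.0237% in the Ikaros line at 0 h, and 0.0165% to 0.0173% and 0.0161% to 0.0203% at 24 h. Among them the endothelial marker miR-126a-3p was higher in the Ikaros line without overlap at all 6 times (mean difference 1.26 ± 0.07, adjusted p = 2.3e-15), and the myeloid marker miR-223-3p was higher on average (0.90 ± 0.18, adjusted p = 0.000143). The epithelial markers miR-200a-3p and miR-200b-3p were lower (-0.91 ± 0.15 and -1.38 ± 0.14, adjusted p = 5.3e-06 and 1.0e-09). MiR-143-3p, miR-199a-5p, miR-200c-3p, miR-141-3p and miR-9-3p were not called, and neither was miR-9-5p. The part of these markers in the results was not tested. In bulk samples, fewer cells with a miRNA and less of it per cell cannot be told apart.

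Averaged over the time course, miR-181a-5p, the main guide of the family, was lower in the Ikaros line. Its estimated differences were larger at the early times, but tests of that change with time did not pass in the main fit. At 0 h the control samples were at 18.23, 18.36 and 18.65 and the Ikaros samples at 17.76, 17.53 and 18.30. At 2 h they were at 18.23, 18.34 and 18.50 against 17.66, 17.92 and 17.80. The groups overlapped at 0 h through 1 Ikaros sample and were apart at 2 h and also at 6 h. At 24 h the control samples were at 17.89, 18.11 and 18.24 and the Ikaros samples at 17.82, 18.49 and 18.45, which overlapped. The difference was -0.55 ± 0.19 (SE) at 0 h and -0.57 ± 0.19 at 2 h, with adjusted p = 0.0786 and 0.0510 (limma, Benjamini-Hochberg over 469 miRNAs), neither past the threshold of 0.05. With culture batch as a replicate block both passed (adjusted p = 0.0162 and 0.0139). At 24 h it was 0.17 with a 95% interval from -0.22 to 0.56 (adjusted p = 0.514), and this sign turned under quantile normalization (-0.18). The mean over the 6 times was -0.26 ± 0.08 (1.195-fold lower, adjusted p = 0.00693), with lower values in 15 of 18 same-numbered pairs of samples. That call was lost when sample medians were subtracted (-0.14, adjusted p = 0.231) and without replicate 2 (-0.22, adjusted p = 0.1). The shift of the line difference from 0 h to 24 h was 0.72 ± 0.27 (adjusted p = 0.0812, and 0.0235 with the replicate block). For the line by time interaction, limma gave an adjusted p of 0.269.

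For miR-181b-5p and miR-181d-5p, which differ by 1 substitution and 1 base of length, no line difference was called at any time. MiR-181b-5p was at 14.79, 15.24 and 14.68 in the control line and 14.77, 14.82 and 15.16 in the Ikaros line at 0 h. At 24 h it was at 14.67, 14.78 and 14.97 against 14.43, 14.65 and 14.86, and the lines overlapped at every time. Its differences lay between -0.34 and 0.01, and its mean over the times was -0.15 (95% interval -0.31 to 0.02, adjusted p = 0.126), which passed without replicate 4 (-0.28, adjusted p = 0.0252) and was 0.01 under quantile normalization. For miR-181d-5p the differences lay between -0.25 and 0.11 and the mean was -0.07 (95% interval -0.20 to 0.06, adjusted p = 0.361). At 24 h its Ikaros samples were at 12.00, 12.07 and 12.04 and lay above the control samples at 11.89, 11.91 and 11.98 without overlap, a difference of 0.11 ± 0.16 (adjusted p = 0.624). The lines overlapped at the other times. The control sample of replicate 2 at 12 h was the highest of all 36 for 4 members. It stood at 18.71 for miR-181a-5p, 15.63 for miR-181b-5p, 12.68 for miR-181d-5p and 15.14 for miR-181a-1-3p. The family's share of that sample's linear total was 29.5%, beside 27.9% and 27.5% in the other control samples at 12 h. A control sample at 0 h had a share of 36.2%. Without replicate 2 the 12 h difference of miR-181a-5p was -0.06 in place of -0.21.

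The line difference of miR-181c-5p, which shares the seed and comes from the chromosome 8 cluster, changed with time and ended with a higher level in the Ikaros line at 24 h. At 6 h the control samples were at 11.79, 11.93 and 12.15 and the Ikaros samples at 11.48, 11.51 and 11.60, with no overlap. At 24 h they were at 11.43, 11.68 and 11.79 against 11.77, 12.24 and 12.399, where 1 Ikaros sample lay just below the highest control sample. The difference was -0.33, -0.30 and -0.43 at 0, 2 and 6 h, none of them called (adjusted p at least 0.140). With the replicate block the 6 h difference passed (adjusted p = 0.0397). It was -0.13 at 12 h, 0.29 at 18 h and 0.50 ± 0.19 at 24 h, a 1.42-fold higher level (adjusted p = 0.0312). The difference at 24 h exceeded that at 0 h by 0.83 ± 0.26 (adjusted p = 0.0335), and the line by time interaction passed as well (adjusted p = 0.0455). The 24 h difference kept its sign without any one replicate number (0.45 to 0.58) and lost its call each time (adjusted p = 0.0645 to 0.221), as it did with the 24 h samples fitted alone (adjusted p = 0.0626).

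MiR-181a-1-3p was lower in the Ikaros line in 17 of 18 same-numbered pairs, the most of any member. At 0 h the lines were alike in range, with control samples at 14.36, 14.21 and 14.19 and Ikaros samples at 14.13, 14.26 and 14.13. From 2 h on every Ikaros sample lay below every control sample of the same time. At 12 h the control samples were at 14.62, 15.14 and 14.30 and the Ikaros samples at 13.65, 13.92 and 13.35. At 18 h the values were 14.76, 14.66 and 14.44 against 13.98, 14.15 and 14.09, and at 24 h 14.64, 14.77 and 14.56 against 13.98, 14.16 and 13.99. The control means were 14.25 at 0 h and 14.66 at 24 h, and the Ikaros means 14.17 and 14.04.

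The difference of miR-181a-1-3p was -0.08 at 0 h (95% interval -0.42 to 0.26, adjusted p = 0.904) and -0.45 at both 2 h and 6 h (adjusted p = 0.0697 and 0.0651). These 2 passed with the replicate block (adjusted p = 0.0434 and 0.0361). It was -1.05 ± 0.17 at 12 h, a 2.07-fold lower level (adjusted p = 1.9e-05). At 18 h it was -0.55 (1.46-fold lower, adjusted p = 0.0123) and at 24 h -0.61 (1.53-fold lower, adjusted p = 0.00390). Averaged over the times it was -0.53 ± 0.07 (adjusted p = 8.1e-08). The 12 h call held without each replicate number in turn (-1.10 to -0.96, the latter without replicate 2), and its adjusted p rose to 0.0679 when only the 12 h samples were fitted. When sample medians were subtracted, the differences at 18 h and 24 h were -0.37 and -0.38 and not called (adjusted p = 0.137 and 0.119). Without replicate 1 both were also not called (-0.43 and -0.59, adjusted p = 0.216 and 0.0639), and without replicate 2 the 18 h call was lost (adjusted p = 0.0805). The line by time interaction did not pass (adjusted p = 0.0753, and 0.0358 with the replicate block).

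MiR-181b-2-3p, a 3p arm from the chromosome 2 cluster, had a higher mean level in the Ikaros line at 12, 18 and 24 h. At 6 h the control samples were at 2.65, 3.18 and 2.97 and the Ikaros samples at 2.04, 2.47 and 2.29, all lower. At 12 h they were at 1.99, 3.27 and 3.18 against 3.91, 3.20 and 3.63, at 18 h 2.74, 2.55 and 2.81 against 3.91, 3.55 and 3.74, and at 24 h 2.57, 2.23 and 1.77 against 3.09, 3.20 and 3.26. The groups overlapped at 12 h and were apart at 18 h and 24 h, with the Ikaros line higher.

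The difference of miR-181b-2-3p was 0.24, -0.24 and -0.66 at 0, 2 and 6 h, none called (adjusted p at least 0.117). It was 0.77 ± 0.28 at 12 h (1.70-fold, adjusted p = 0.0457), 1.03 ± 0.28 at 18 h (2.05-fold, adjusted p = 0.00504) and 1.00 ± 0.28 at 24 h (1.99-fold, adjusted p = 0.00512). The line by time interaction passed (adjusted p = 0.00745). The difference at 24 h beyond that at 0 h was 0.75 ± 0.39 and was not called (adjusted p = 0.224). The 12 h value rested on replicate 1, since without that replicate number in both lines it was 0.19 (adjusted p = 0.715), and it was also not called without replicate 2 or replicate 4 (adjusted p = 0.0753 and 0.0762). Without replicate 2 the 18 h and 24 h differences were 1.05 and 1.00 and not called (adjusted p = 0.0824 and 0.0713), and without replicate 4 the 24 h difference was 0.75 (adjusted p = 0.125). The mean over the times was 0.36 ± 0.11 (adjusted p = 0.00959) and was not called without replicate 1 (0.26, adjusted p = 0.0735). MiR-181b-2-3p held at most 0.00141% of the linear total of a sample, so its changes do not bear on the share of the family.

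**Figure D3:**
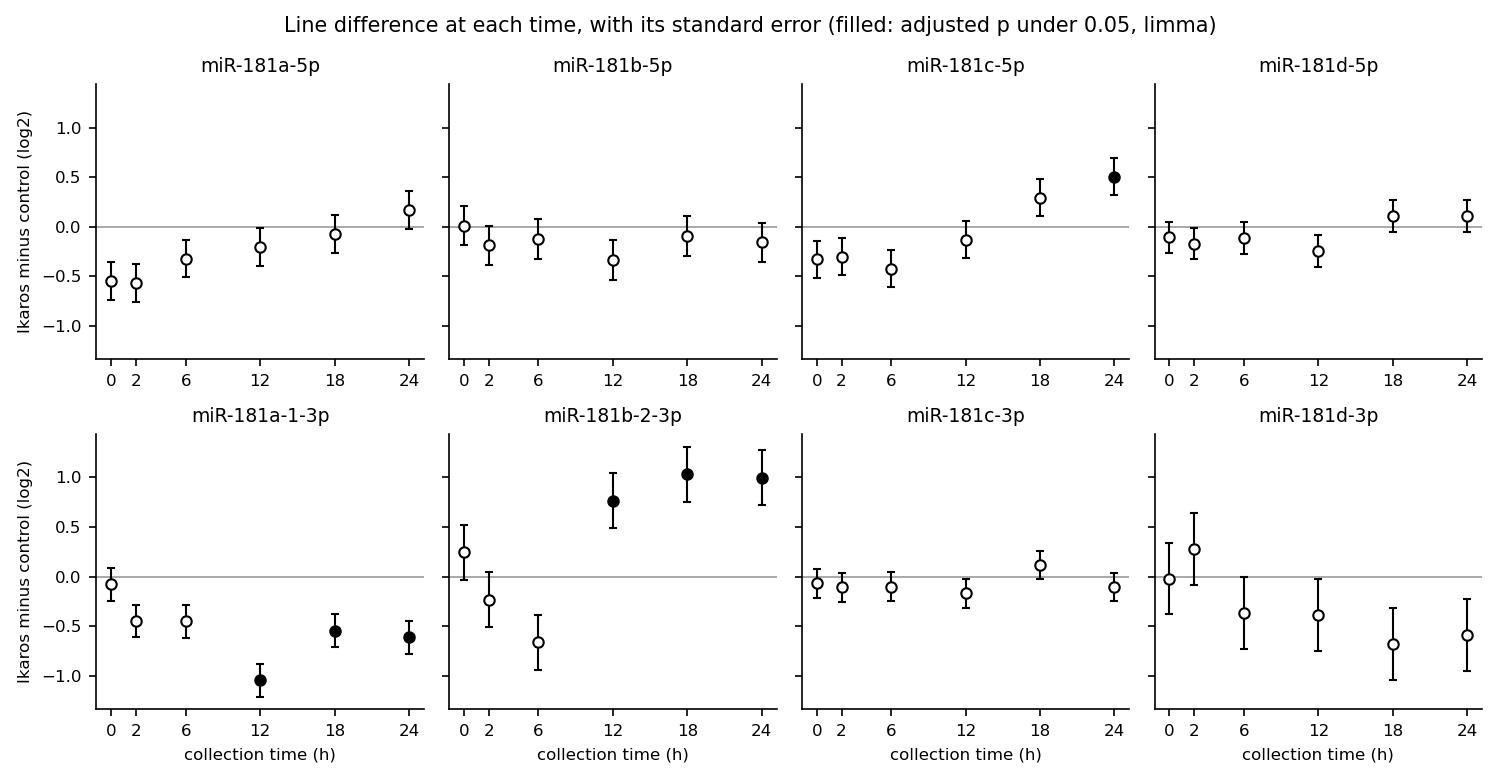
Difference between the Ikaros and the control line (log2, vertical axis) against collection time in hours for the 8 members, as estimates with 1 standard error from limma on all 36 samples. Filled points have an adjusted p under 0.05: they are negative for miR-181a-1-3p and positive for miR-181b-2-3p at 12, 18 and 24 h, and positive for miR-181c-5p at 24 h.

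Both remaining 3p arms come from the chromosome 8 cluster. MiR-181c-3p stayed between 10.44 and 11.29 in all 36 samples, and its line differences lay between -0.17 and 0.12 with no call (mean -0.07, 95% interval -0.19 to 0.05, adjusted p = 0.303). For miR-181d-3p the Ikaros samples were lower without overlap at 18 h (2.00, 2.11 and 1.54 against 2.28, 2.71 and 2.70) and 24 h (1.82, 1.62 and 1.73 against 2.76, 1.92 and 2.26). Its differences of -0.68 and -0.59 had standard errors of 0.36 and were not called (adjusted p = 0.158 and 0.196). The mean over the times was -0.30 (adjusted p = 0.0931) and passed without replicate 2 (-0.48, adjusted p = 0.0237) and under quantile normalization (-0.31, adjusted p = 0.0488).

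The calls of the members were set beside those of the whole table. At 0, 2 and 6 h none of the 8 members was called by limma, against 8.53%, 11.3% and 15.1% of the 469 miRNAs. Under an unadjusted p of 0.05 there were 1, 2 and 3 members, a looser threshold to which these shares do not apply. At 6 h one of them, miR-181c-5p (unadjusted p = 0.0295 in limma), was only at place 99 of the 469 when ordered by p. At 12 h 1 member was called higher and 1 lower (all miRNAs called, 21.7%), at 18 h again 1 and 1 (29.9%), and at 24 h 2 higher and 1 lower (39.9%). For the mean over the times, 1 was higher and 2 lower (52.5%). The shift of the difference from 0 h to 24 h was called higher for 1 member (5.76% of all miRNAs called higher) and the line by time interaction for 2 (13.0%). The median of the 8 members at 24 h was 0.00, beside -0.07 over all miRNAs. Subtracting sample medians moved the median of all miRNAs at 24 h by 0.23, and with it 6 of 8 members were above 0 instead of 4.

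To see whether the arms of one hairpin moved together, the log2 difference between arms was computed in each sample and compared between the lines with an exact permutation test that swapped the lines within the 18 pairs (262144 arrangements, two-sided, 5 ratios). None passed after adjustment. The test averages over the times, and for several ratios the line difference turned its sign within the time course. It also treated the 18 pairs as independent. Those of 2 h to 24 h came from culture batches 1, 2 and 3 at each time, so the p-values may be too small. MiR-181a-5p minus miR-181a-1-3p was 3.74 ± 0.32 in the control line and 4.01 ± 0.39 in the Ikaros line (SD, n = 18), higher in 12 of 18 pairs (exact p = 0.0426, adjusted p = 0.106). By time it was 4.16 against 3.69 at 0 h, where the lines overlapped, and 3.63 against 4.47 at 12 h, 3.604 against 4.08 at 18 h and 3.43 against 4.21 at 24 h, where the Ikaros samples were all higher. MiR-181b-5p minus miR-181b-2-3p was 12.31 ± 0.47 and 11.80 ± 0.71, lower in 12 of 18 pairs (exact p = 0.0195, adjusted p = 0.0976). At 6 h it was 11.96 against 12.50 with overlap, and the Ikaros samples were all lower at 18 h (12.15 against 11.02) and 24 h (12.61 against 11.46). The arms of Mir181c differed by 0.91 ± 0.21 and 0.92 ± 0.28 over all times (exact p = 0.931). At 6 h this ratio was 1.06 in the control line (0.88 to 1.23) and 0.74 in the Ikaros line (0.63 to 0.82), whereas at 24 h it was 0.79 (0.68 to 0.87) and 1.39 (1.34 to 1.46). The lines were apart in opposite directions at these times. Those of Mir181d differed by 9.69 ± 0.58 and 9.91 ± 0.64 (exact p = 0.324, adjusted p = 0.405). Between the 2 main guides, miR-181a-5p minus miR-181b-5p was 3.34 ± 0.21 and 3.23 ± 0.33 (exact p = 0.252, adjusted p = 0.405), with 3.21 and 2.84 at 2 h and 3.28 and 3.61 at 24 h, both without overlap. The values at single times are a description, since with 3 pairs this test could not pass the threshold. The 5p rows of a and b hold both copies, so the ratios of miR-181a-5p and miR-181b-5p to a 3p arm set the sum of 2 hairpins beside an arm of one of them.

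The comparison of the 3p arms of Mir181b-2 and Mir181a-1 was chosen after the values were seen and has no test. MiR-181b-2-3p minus miR-181a-1-3p was -11.65 ± 0.57 in the control line and -11.33 ± 0.24 in the Ikaros line at 0 h (SD, n = 3). It was -11.94 ± 0.08 and -11.73 ± 0.12 at 2 h, and -11.58 ± 0.40 and -11.79 ± 0.38 at 6 h. The lines overlapped at 0 h, 2 h and 6 h, though only just at 2 h. At 12 h the means were -11.87 ± 0.76 and -10.06 ± 0.57, at 18 h -11.92 ± 0.25 and -10.34 ± 0.26, and at 24 h -12.47 ± 0.37 and -10.86 ± 0.12. At these 3 times every Ikaros sample was above every control sample. Over all times the value was higher in the Ikaros line in 15 of 18 pairs.

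**Figure D4:**
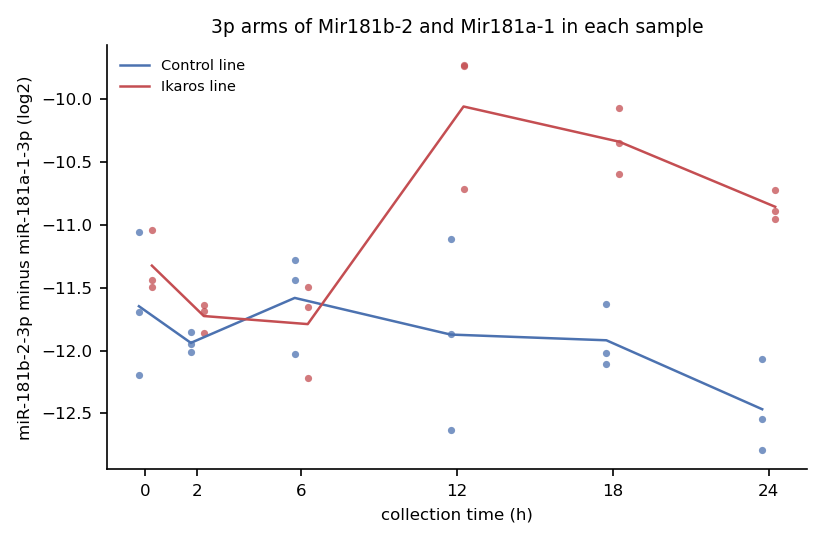
Level of miR-181b-2-3p minus that of miR-181a-1-3p (log2, vertical axis) in each sample against collection time in hours, with 3 samples per line and time as points and lines through the group means. The groups overlap at 0 h, 2 h and 6 h, and from 12 h on the Ikaros samples (red, group means from -10.06 to -10.86) lie above the control samples (blue, from -11.87 to -12.47).

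Within the lines, the change over the 6 times was called for 2 members in the Ikaros line (26.7% of all miRNAs) and for none in the control line (0.426% of all miRNAs, members' adjusted p from 0.708 to 0.888 in limma's F-test, none with an unadjusted p under 0.05). MiR-181b-2-3p changed in the Ikaros line (adjusted p = 0.000200), with group means of 2.85, 2.34 and 2.27 over the first 3 times and 3.58, 3.73 and 3.19 over the last 3. MiR-181c-5p changed too (adjusted p = 0.0476), from 11.63 at 0 h and 11.53 at 6 h to 12.14 at 24 h. Its call was lost without each replicate number in turn (adjusted p = 0.0742 to 0.531). Between 2 h and 24 h, which share culture batches, 3 members were called in the Ikaros line (28.6% of all miRNAs): miR-181c-5p rose by 0.52 ± 0.19 (adjusted p = 0.0357) and miR-181b-2-3p by 0.84 ± 0.28 (adjusted p = 0.0241), while miR-181d-3p fell by 1.01 on the log2 scale (adjusted p = 0.0353). Without replicate 2 none of these 3 was called (adjusted p = 0.0817 to 0.241), nor without replicate 4 (adjusted p = 0.0592 to 0.183), and miR-181d-3p was not called without replicate 1 either (adjusted p = 0.231). MiR-181a-5p was 0.46 ± 0.19 higher at 24 h than at 2 h (adjusted p = 0.0693), which passed with the replicate block (adjusted p = 0.0236) and with sample medians subtracted (0.65, adjusted p = 0.0407). From 0 h to 24 h miR-181c-5p rose by 0.51 ± 0.19 (adjusted p = 0.0383), the only member called there (30.7% of all miRNAs). These 2 times share no culture batch. The call of miR-181c-5p was lost without replicate 1 (0.62, adjusted p = 0.0784) and replicate 2 (0.29, adjusted p = 0.542). The levels of miR-181a-1-3p at 24 h and 2 h in the Ikaros line differed by -0.03 (95% interval -0.37 to 0.31, adjusted p = 0.932).

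Other miRNAs of lymphocyte development were counted for comparison, of which 21 of 24 listed were in the table. At 24 h 2 of the 21 were called higher and 4 lower in the Ikaros line (39.9% of all miRNAs called), with a list median of -0.35 beside -0.07 over all miRNAs. Over the mean of the times 3 were called higher and 9 lower (52.5% of all miRNAs), with a median of -0.25 beside 0.03. Those called higher were miR-146a-5p (0.65 ± 0.08), miR-210-3p (0.60 ± 0.14) and miR-146b-5p (0.25 ± 0.08). The difference of miR-146a-5p was 1.36 ± 0.21 at 0 h (adjusted p = 3.1e-05 in limma) and 0.07 at 24 h (adjusted p = 0.811). MiR-21a-5p, an abundant miRNA that is raised in many activated and malignant cells, is the miRNA most like miR-181a-5p outside the family. Its mean difference over the times was -0.47 ± 0.06 (adjusted p = 2.3e-08) and its difference at 24 h 0.40 ± 0.14 (adjusted p = 0.0219). MiR-34a-5p, a target of p53 that restrains B cell development when overexpressed, had a difference of -0.35 at 0 h (adjusted p = 0.314) and of -0.90 ± 0.17 at 24 h (adjusted p = 0.000103), and the shift between them was not called (-0.55, adjusted p = 0.134). MiR-221-3p, which is made at high level in early progenitors, was lower by a similar amount before and after induction, with differences of -0.91 ± 0.18 at 0 h (adjusted p = 0.000584) and -0.94 ± 0.18 at 24 h (adjusted p = 0.000132) and a shift of -0.03 (95% interval -0.55 to 0.50, adjusted p = 0.961).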

How the data were processed

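Small RNA libraries of 36 samples (12 groups of line and time, 3 samples each) were used as grouped by the labels, one table with one column per sample. Per the study's methods, the authors aligned reads to miRBase mouse miRNAs with Novoalign and counted them with multiBamCov of bedtools, then filtered on a low CPM (NOISeq). A GC correction (cqn), TMM scaling and ComBat for the sequencing batch followed, and technical replicates were then averaged. The labels name mm10, and versions are not given in the sources used here. The authors deposited log2 values from 0.09 to 19.30, with the base inferred from their range. The study gives an approximate range of reads per library but the deposited values hold no counts, so the reads behind a value are not known here and precision rests on the replicates. Batch correction and averaging can narrow the spread between samples.

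The values were tested as deposited with limma 3.58.1 (R 4.3.3, lmFit, eBayes with a mean-variance trend), with 1 mean per group in 1 model of 36 samples, Benjamini-Hochberg adjustment over 469 miRNAs and a threshold of 0.05. This main fit held no term for culture batch. The study states no test for this table. On simulated data the fit was tested first. Arm ratios used an exact permutation test (scipy 1.17.1, numpy 2.4.6, Python 3.11.15). Figures were drawn with matplotlib 3.10.9. Alternatives were subtraction of sample medians, quantile normalization, a filter at a mean log2 value of 2 (341 miRNAs left), no trend, only the groups compared, culture batch as a replicate block, and each replicate number left out.

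Same-numbered samples of both lines at a time share a culture batch in the labels, which makes them pairs. Their deviations from group means correlated at 0.26 over all times (0.06 to 0.41 by time). Replicates came from separate culture batches.

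The members, lists, markers and named miRNAs (all rows of the family, the 3 miRNAs most like each member, and the lymphocyte and cell type lists) were chosen with earlier results of these data known. The lymphocyte list and markers come from general knowledge. Hairpins were placed by name in GENCODE vM21, and sequences come from RefSeq. The hairpin Mir181c is named only.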

Additional observations from a re-analysis of the deposited data

Results flagged for a closer look

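For 2 members the line difference changed with time by a test of that change itself (limma, adjusted over 469 miRNAs). MiR-181c-5p passed both for the difference at 24 h beyond that at 0 h (0.83, adjusted p = 0.0335) and for the line by time interaction (adjusted p = 0.0455). Both lost their calls whichever replicate number was left out (adjusted p = 0.0755 to 0.346 and 0.193 to 0.601). MiR-181b-2-3p passed for the interaction (adjusted p = 0.00745), and not without replicate 2 (0.214) or replicate 4 (0.163). Its difference at 24 h beyond that at 0 h was not called (0.75, adjusted p = 0.224). Groups of 3 samples were too small for a check of single outlying samples.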

How the results depend on the processing

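The called differences of the members kept their direction in all 132 recomputations, of which 91 also kept their call, and called F-tests, which have no direction, kept their call in 21 of 34. Settings differed in this. Of 19 called values, F-tests included, all kept their call with the filter or the replicate block. Without replicates 1, 2 and 4 in turn, 9, 5 and 9 of 19 did, and with only the groups compared 7 of 14. Of 580 recomputations of differences that were not called, 40 changed sign. The counts of members below show how calls depend on the setting, and not whether members were called more often than other miRNAs. At 0 h the replicate block called 44 of all 469 miRNAs (40 in the main fit). A count of members called, out of 8, moved as follows. With the replicate block it was 1 at 0 h, 2 at 2 h, 2 at 6 h, 2 for the shift from 0 h to 24 h and 2 for 24 h against 0 h in the Ikaros line, 2 times that share no culture batch, so that the block does not remove batch differences between them. The block moved no other count of members by over 1.5 times. With the filter on low values it was 1 at 2 h. With only the groups compared it was 0 at 12 h, 1 for the change over time in the Ikaros line and 0 for 24 h against 0 h. With sample medians subtracted it was 1 at 18 h. Quantile normalization gave 1 at 18 h, 0 for the shift beyond 0 h, 1 for the interaction and 1 for the change over time in the Ikaros line. Without a mean-variance trend it was 1 for the interaction, 1 for that change over time and 0 for 24 h against 0 h. Leaving out each replicate number in turn gave 1 at 12 h, 0 to 2 at 18 h, 1 at 24 h, 0 for the shift, 0 to 1 for the interaction, 1 for the change over time in the Ikaros line, 0 to 1 for 24 h against 0 h and 0 to 2 for 24 h against 2 h.

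Signs turned for these named values, none of them called. With sample medians subtracted, miR-181a-1-3p at 0 h was 0.0031, miR-181a-5p at 18 h 0.10 and the mean of miR-181c-5p 0.056. Under quantile normalization miR-181a-5p was 0.11 at 18 h and -0.18 at 24 h, and the mean of miR-181b-5p was 0.013. Over the replicates left out, miR-181a-5p at 18 h ranged from -0.24 to 0.031, the ratio of the Mir181c arms from -0.048 to 0.050 and that of the Mir181d arms from -0.10 to 0.46. The causes were not tested.

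Over all 469 miRNAs, fitting only the groups compared gave 16 calls at 2 h (53 with all samples), 18 at 12 h (102) and 71 for 24 h against 2 h (134). Leaving out a replicate number gave 22 to 31 calls at 0 h (40), 18 to 34 at 2 h, 22 to 41 at 6 h (71), 34 to 91 at 12 h, 69 to 125 at 18 h (140) and 110 to 142 at 24 h (187), and 12 to 31 for the shift (58). With 2 samples a group these fits have fewer samples. The values hold no counts, so no smallest detectable level was computed for the low 3p arms.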

Other observations

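Pearson correlations over the 36 samples, given as a description, showed which miRNAs varied most like each member. The samples share lines, times and culture batches, so these values mix line differences with variation within groups. MiR-181b-5p and miR-181d-5p, which come from different clusters, were each other's most alike among all miRNAs (r = 0.761 over 36 samples, 0.92 over the 18 control samples and 0.523 over the 18 Ikaros samples). MiR-181a-5p was most like miR-181c-5p (r = 0.71), whereas miR-181b-5p, its neighbour in 2 clusters, was at place 16 (r = 0.425). Both of these most alike pairs are also close in sequence, at 2 edits for miR-181b-5p and miR-181d-5p and 1 edit for miR-181a-5p and miR-181c-5p. How the aligner shared reads between such rows is not given in the sources used here, and its part in these correlations was not tested. MiR-181a-1-3p correlated with miR-181a-5p at r = 0.286 over all samples and at -0.0553 and -0.215 within the lines. MiR-181b-2-3p and miR-181d-3p had the lowest value between members (r = -0.504).

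Outside the family, miR-181a-5p was most like miR-21a-5p (r = 0.694), miR-541-5p (0.608) and miR-127-3p (0.556). For miR-181c-5p these were miR-425-5p (0.804), miR-151-5p (0.759) and miR-669c-5p (0.703). MiR-181c-3p was most like miR-92a-3p (0.789), miR-1947-5p (0.783) and miR-1843b-5p (0.779). The highest value of miR-181b-5p was with miR-182-5p (0.591), that of miR-181d-5p with miR-30e-3p (0.563) and that of miR-181d-3p with miR-491-3p (0.725). MiR-181a-1-3p was most like miR-200a-5p at 0.784 over all samples, and at 0.484 and 0.343 within the control and the Ikaros line. MiR-181b-2-3p was most like miR-151-3p at 0.652, and at 0.4 and 0.691 within the lines.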
